A study of Mus musculus with 20 samples.

Results

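The Cyp3a family of cytochrome P450 genes was followed in liver RNA of 20 male mice on a high fat diet. Its members were the non-control probes whose gene name in the array files starts with Cyp3a and a digit. This gave 11 probes of 8 genes among 55642 non-control probes kept: Cyp3a11, Cyp3a13 and Cyp3a59 with 2 probes each, and Cyp3a16, Cyp3a25, Cyp3a41b, Cyp3a44 and Cyp3a57 with 1 each. The Cyp3a41b probe also carries the accession of Cyp3a41a, so these near-identical genes were read as 1. All 11 probes passed the filter on dim probes and were among the 28432 probes tested, and every probe except that of Cyp3a44 was well above background on all 20 arrays. The Cyp3a44 probe was well above background on 12 arrays.

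Each mouse gave 1 single-colour Agilent array, with 4 mice in each of 5 inbred strains. The strains were NZO/HiBomDife (NZO), which the series describes as obese and susceptible to diabetes, DBA/2J (DBA) and C3HeB/FeJ (C3H), which it describes as susceptible, and C57BL/6 (B6) and 129P2/OlaHsd (129Ola), which it describes as lean and resistant. All groups received the same diet, with 45% fat, and no group on another diet was used here. Liver was taken at week 6, which the labels give in one place as age and in another as the end point of the diet. Levels are log2 processed signal minus the 75th percentile of the array, so a level of 0 is the signal at that percentile. Levels of different probes were not set against each other.

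Cyp3a enzymes are haem-containing monooxygenases of the endoplasmic reticulum that oxidise drugs, steroids and bile acids. They receive electrons from P450 oxidoreductase (Por) and cytochrome b5, and several of the genes are induced through the nuclear receptors PXR (Nr1i2) and CAR (Nr1i3). In mouse liver Cyp3a11 is the classic inducible member, Cyp3a41 and Cyp3a44 are known as female-biased genes, Cyp3a16 as a gene of fetal and neonatal liver, and Cyp3a13 as a member also expressed in intestine.

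All members lie on chromosome 5. In the mm9 coordinates of the files, the probes of Cyp3a57 (chr5:146151322-146151381), Cyp3a16 (chr5:146197274-146197333), Cyp3a41b (chr5:146319794-146319853), Cyp3a44 (chr5:146585717-146585776), Cyp3a11 (chr5:146666237-146666296), Cyp3a25 (chr5:146788879-146788938) and Cyp3a59 (chr5:146920638-146920697) span 769.3 kb. Cyp3a57 and Cyp3a59 are on the plus strand and the others on the minus strand. The Cyp3a13 probe (chr5:138335412-138335471, minus strand) lies apart from this cluster.

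The promoters of the 9 Cyp3a genes, including Cyp3a41a, fell into sequence groups. Over the 250 bases before the RefSeq start (GRCm38.p6), Cyp3a16, Cyp3a41a, Cyp3a41b and Cyp3a44 were 91.3 to 99.6% identical to each other, counting gaps as differences. Cyp3a25, Cyp3a57 and Cyp3a59 were 88.9 to 94.8% identical to each other. Cyp3a11 was 72.5 to 76.6% identical to the first group, and Cyp3a13 at most 58.4% identical to any other member. The bases 200 to 51 before the start are shown for 5 members: Cyp3a44, Cyp3a41b and Cyp3a16 of the first group, Cyp3a25 of the second, and Cyp3a11. Their part in the strain differences was not tested. These stretches lie on the minus strand at chr5:145805925-145806074 (Cyp3a44), chr5:145584781-145584930 (Cyp3a41b), chr5:145469774-145469923 (Cyp3a16), chr5:145879905-145880054 (Cyp3a11) and chr5:146009669-146009818 (Cyp3a25) of GRCm38.p6. Capitals mark an HNF4-type element (CAAAGTCCA), a forkhead core (TGTTTAC) and a nuclear receptor half-site (AGGTCA), each searched on both strands.
Cyp3a44: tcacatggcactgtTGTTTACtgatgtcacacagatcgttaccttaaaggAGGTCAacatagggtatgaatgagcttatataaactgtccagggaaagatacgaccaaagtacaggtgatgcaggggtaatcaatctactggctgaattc
Cyp3a41b: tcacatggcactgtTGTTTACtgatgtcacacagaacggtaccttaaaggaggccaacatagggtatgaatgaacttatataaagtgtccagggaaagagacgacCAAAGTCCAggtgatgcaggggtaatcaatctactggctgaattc
Cyp3a16: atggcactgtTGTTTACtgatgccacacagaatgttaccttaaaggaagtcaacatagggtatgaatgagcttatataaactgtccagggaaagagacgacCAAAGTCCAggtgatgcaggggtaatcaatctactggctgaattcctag
Cyp3a11: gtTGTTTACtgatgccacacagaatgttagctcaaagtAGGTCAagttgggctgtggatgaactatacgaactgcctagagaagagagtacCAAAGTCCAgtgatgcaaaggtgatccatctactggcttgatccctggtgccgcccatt
Cyp3a25: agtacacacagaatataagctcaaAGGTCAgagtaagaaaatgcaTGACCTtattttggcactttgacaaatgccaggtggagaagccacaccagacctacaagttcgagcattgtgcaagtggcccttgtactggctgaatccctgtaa

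CAAAGTCCA was present in Cyp3a11, Cyp3a16, Cyp3a41a and Cyp3a41b and in 0.381% of 27025 promoters searched over the same 250 bases. TGTTTAC was present in those 4 promoters and in Cyp3a44, and in 3.09% of all promoters. AGGTCA was present in Cyp3a11, Cyp3a44, Cyp3a25, Cyp3a57 and Cyp3a59 and in 13.8% of all promoters, and the last 3 of these hold it on both strands. A STAT5-type element (TTCNNNGAA, in 7.18% of promoters) was found in none of the 9. The motifs were chosen after the sequences had been read, overlap between them was not seen in the printed windows, and a match is not a measured site.

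The probes themselves share sequence to different degrees. Among the members, the longest run of identical bases between 2 probes was 23 of 60, between Cyp3a44 and Cyp3a41b, and is shown in capitals in 30 bases of each probe because these genes gave the largest differences below.
Cyp3a44 probe: CACTGAGCTTTCTCAGTGTCTGTgcaagtt
Cyp3a41b probe: atcCACTGAGCTTTCTCAGTGTCTGTacag

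The second Cyp3a11 probe (60 bases within chr5:146672058-146673925) and the brighter Cyp3a59 probe lie in coding sequence. The files assign the Cyp3a11 probe also to the accessions of Cyp3a41b, Cyp3a41a and Cyp3a44, so it cannot separate Cyp3a11 from those genes. In the Cyp3a59 probe, capitals mark the bases that encode the haem-binding loop conserved among cytochrome P450s.
Cyp3a11 second probe: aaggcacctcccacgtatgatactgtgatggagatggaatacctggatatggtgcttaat
Cyp3a59 brighter probe: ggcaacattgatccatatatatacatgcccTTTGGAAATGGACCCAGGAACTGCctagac

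Array quality bears on the comparisons as follows. Between 40.02 and 59.07% of probes were well above background per array, and mice of 1 strain correlated at 0.971 to 0.992 across the probes tested. The arrays of NZO, DBA and B6 were extracted with one software version, and those of C3H and 129Ola with another. A difference between strains across that line cannot be told apart from the version. C3H and 129Ola were also scanned on separate days and slides, so slide, day and strain cannot be told apart there. NZO, DBA and B6 shared 2 scanning days, and 2 of the DBA mice (8 and 15) were scanned on a day of their own. P-values come from limma over all 20 arrays, with Benjamini-Hochberg adjustment across the 28432 probes and a threshold of 0.05. They measure the spread between these mice. Hepatocyte markers were bright in every mouse, with all 10 well above background, and in these bulk arrays fewer cells of a type and less RNA per cell cannot be told apart.

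NZO and B6 livers differed in 6 of the 8 genes, by the brightest probe of each, 4 higher and 2 lower in NZO. Of all 20592 genes tested by their brightest probe, 17.9% differed, 9.45% higher and 8.44% lower. The mice of the strains did not overlap in 6 of the 8 genes, and in 21.9% of all probes. The higher genes were Cyp3a41b, Cyp3a44, Cyp3a16 and, by the brighter of its probes only, Cyp3a59, and the lower ones Cyp3a25 and Cyp3a57. Neither Cyp3a11 nor Cyp3a13 passed the threshold. The median difference of the 8 genes was 0.32, against 0.05 over all genes.

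**Figure D1:**
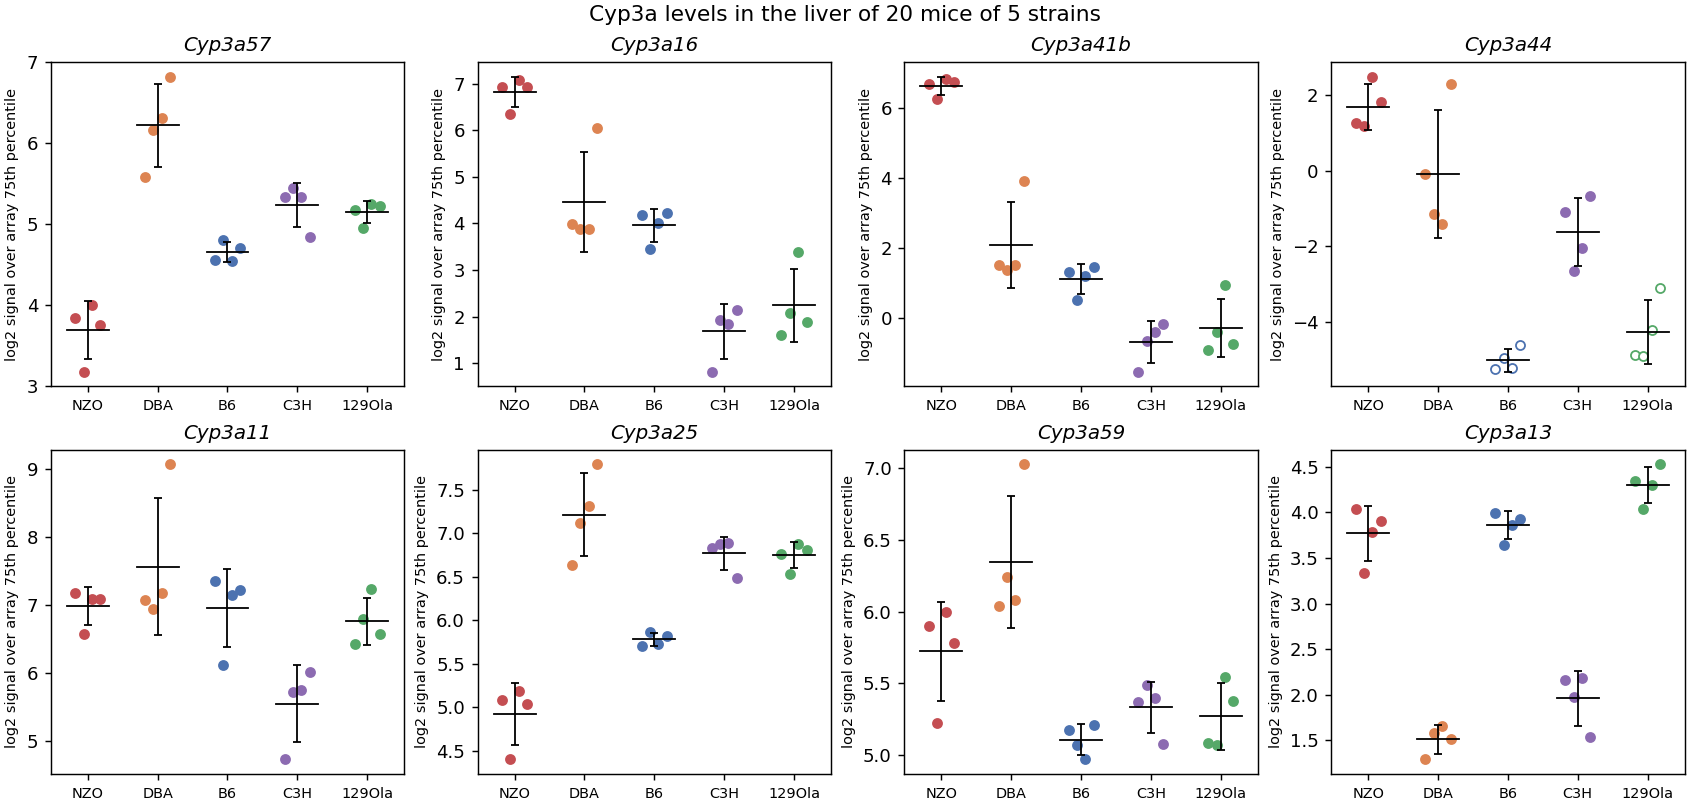
Level of each Cyp3a gene (brightest probe) in every mouse, as log2 processed signal over the 75th percentile of the array. Points are mice (open where the probe was not well above background), lines the mean and bars the SD of 4 mice. NZO mice stand above all others in Cyp3a16 and Cyp3a41b, and 1 DBA mouse stands above the other 3 in Cyp3a11, Cyp3a16, Cyp3a41b and Cyp3a44.

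Cyp3a41b, the female-biased member, had levels of 6.69, 6.27, 6.84 and 6.76 in NZO mice, against 1.31, 0.50, 1.20 and 1.45 in B6 mice. The NZO mice were all far above the B6 mice, and no value overlapped. The log2 difference was 5.52 ± 0.50 (SE), a 46.0-fold higher signal in NZO (limma adjusted p = 2.51e-07). Within the 2 shared scanning days, with 1 to 3 mice of a strain on each, it was 5.78 and 5.02.

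Cyp3a44, also female-biased, had levels of 1.26, 1.18, 2.49 and 1.82 in NZO mice. In the 4 B6 mice it was not well above background, with measured levels of -5.27, -4.97, -5.24 and -4.62. NZO signal was thus higher by a factor of at least 58.9 (adjusted p = 6.73e-07), taking for each B6 array the higher of the probe's own signal and the lowest signal well above background. Bounds below are computed in the same way and hold for this background correction and scaling only. With normexp background correction and quantile normalization the log2 difference was 2.85 and still passed. This is below the bound of 58.9-fold, so the size of the fold depends on the processing.

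Cyp3a16, the fetal and neonatal member, had levels of 6.93, 6.35, 7.09 and 6.92 in NZO mice, against 4.18, 3.45, 3.999 and 4.21 in B6 mice. The strains did not overlap. The log2 difference was 2.86 ± 0.46, or 7.27-fold (adjusted p = 0.000179), and 3.15 and 2.26 within the 2 days.

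Cyp3a25, a member of adult liver, moved the other way. Its levels were 5.09, 4.40, 5.18 and 5.03 in NZO mice, against 5.71, 5.87, 5.73 and 5.83 in B6 mice, again without overlap. It was lower in NZO, with a log2 difference of -0.86 ± 0.20 (adjusted p = 0.00512), and -0.75 and -1.32 within the 2 days.

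Cyp3a57 followed Cyp3a25, with levels of 3.84, 3.18, 4.01 and 3.76 in NZO mice, against 4.55, 4.81, 4.55 and 4.71 in B6 mice. All NZO mice were below all B6 mice, and the log2 difference was -0.96 ± 0.22 (adjusted p = 0.00405), -0.89 and -1.37 within the 2 days.

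Cyp3a59 differed by 0.62 ± 0.20 on the log2 scale by its brighter probe (adjusted p = 0.0421). Its call was lost with scanning day as a block (0.54, adjusted p = 0.0542) and under several other settings. The second probe gave -0.82 ± 0.41 (adjusted p = 0.195), with the opposite sign, so the 2 probes disagree and no direction is given for this gene between NZO and B6.

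DBA and B6 livers differed in 5 of the 8 genes, where 15.1% of all genes differed, 7.18% higher and 7.94% lower. The mice did not overlap in 5 of the 8 genes, and in 19.7% of all probes. Cyp3a25, Cyp3a57, Cyp3a59 and Cyp3a44 were higher in DBA and Cyp3a13 was lower, while Cyp3a11, Cyp3a16 and Cyp3a41b did not pass the threshold. The median of the 8 differences was 1.103, against 0.01 over all genes. Without DBA 15, the mouse that stood apart, 5 genes again passed.

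Cyp3a25 had levels of 6.64, 7.12, 7.32 and 7.79 in DBA mice, against 5.71, 5.87, 5.73 and 5.83 in B6 mice. Every DBA mouse was above every B6 mouse. The log2 difference was 1.43 ± 0.20, or 2.70-fold (adjusted p = 4.03e-05), and 1.24 without DBA 15. Within the 2 shared days, with 1 DBA mouse and 2 B6 mice on each, it was 1.28 and 0.91. The within-day values below for DBA against B6 rest on the same mice.

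Cyp3a57 had levels of 5.58, 6.17, 6.32 and 6.82 in DBA mice, against 4.55, 4.81, 4.55 and 4.71 in B6 mice. The strains did not overlap, and the log2 difference was 1.57 ± 0.22, or 2.96-fold (adjusted p = 3.57e-05), 1.37 without DBA 15, and 1.41 and 1.03 within the 2 days.

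Cyp3a59 had levels of 6.04, 6.24, 6.08 and 7.03 in DBA mice and 5.17, 5.07, 4.97 and 5.21 in B6 mice by its brighter probe. The strains did not overlap, with a log2 difference of 1.24 ± 0.20 (adjusted p = 0.000214), and 1.105 and 0.97 within the 2 days. Its dimmer probe gave 0.34 ± 0.41 (adjusted p = 0.692), and on that probe the mice overlapped.

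Cyp3a44 had levels of -0.09, -1.15, -1.41 and 2.31 in DBA mice and was not well above background in B6, so that DBA signal was higher by a factor of at least 17.2 (adjusted p = 2.32e-05), and of at least 9.88 without DBA 15. With normexp and quantile normalization the log2 difference was 1.63, and so below the bound of 17.2-fold, and still passed. The spread within DBA was wide, and DBA 15 lay in the range of the NZO mice.

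Cyp3a13, the member outside the cluster, had levels of 1.29, 1.58, 1.66 and 1.52 in DBA mice, against 3.997, 3.65, 3.86 and 3.93 in B6 mice. The DBA mice lay close together and far below B6. The log2 difference was -2.34 ± 0.16 (adjusted p = 8.52e-09), and the second Cyp3a13 probe (chr5:138334265-138334324) gave -2.19 ± 0.21 (adjusted p = 4.33e-07). Within the 2 days the first probe gave -2.20 and -2.63.

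NZO and DBA livers, the obese and the other susceptible strain of this software version, differed in 6 of the 8 genes, where 17.5% of all genes differed, 9.46% higher and 8.05% lower. The mice did not overlap in 6 of the 8 genes, and in 19.5% of all probes. Cyp3a41b, Cyp3a16 and Cyp3a13 were higher in NZO, and Cyp3a57, Cyp3a25 and Cyp3a59 were lower. Since the 2 strains share the B6 mice as controls above, this direct comparison gives its own values. The median of the 8 differences was 0.60, against 0.04 over all genes.

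Cyp3a41b was 4.56 ± 0.50 higher in NZO on the log2 scale (adjusted p = 2.54e-06), with 1.52, 1.37, 1.51 and 3.91 in DBA mice, and 5.17 without DBA 15. Cyp3a16 was 2.37 ± 0.46 higher (adjusted p = 0.00104), with 3.99, 3.88, 3.87 and 6.06 in DBA mice, and 2.91 without DBA 15. Even DBA 15 lay below every NZO mouse in both genes.

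Cyp3a57 was lower in NZO, with a log2 difference of -2.53 ± 0.22 (adjusted p = 1.19e-07), as was Cyp3a25, with -2.29 ± 0.20 (adjusted p = 1.50e-07), both without overlap. Cyp3a13 was 2.25 ± 0.16 higher in NZO (adjusted p = 1.35e-08). Cyp3a44 did not pass with all mice (1.78 ± 0.65, adjusted p = 0.0745) and passed without DBA 15 (2.57, adjusted p = 0.00167). Cyp3a59 passed with all mice (-0.63 ± 0.20, adjusted p = 0.0411) and lost its call in 11 settings. It did so without any 1 of 7 mice (DBA 9 or 15, NZO 7 or 11, B6 9, C3H 1 or 3), with -0.40 without DBA 15 (adjusted p = 0.138) and -0.46 without NZO 7 (adjusted p = 0.137), and with scanning day as a block (-0.49, adjusted p = 0.193).

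**Figure D2:**
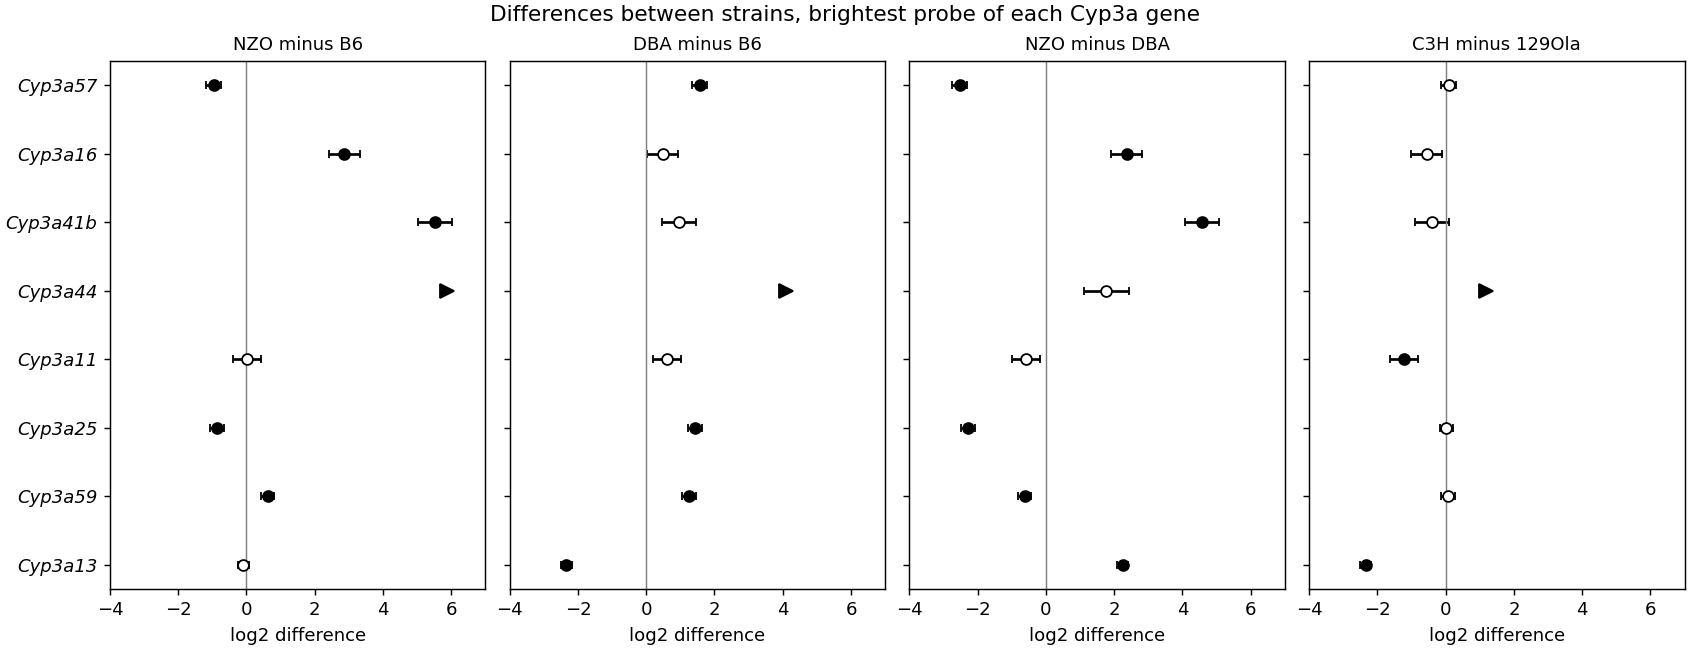
Log2 difference of each Cyp3a gene (brightest probe) in 4 comparisons, as points with their SE from limma. Filled symbols passed the threshold, open ones did not, and triangles are lower bounds for Cyp3a44 where the second strain was not above background. Cyp3a13 sits at -2.34 for DBA against B6 and -2.33 for C3H against 129Ola.

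C3H and 129Ola livers differed in 3 of the 8 genes, where 37.1% of all genes differed (15.1% higher and 22% lower), so the share was near that of the array. The mice did not overlap in 3 of the 8 genes, and in 38.4% of all probes. Cyp3a13 was lower in C3H, with levels of 2.17, 1.97, 2.18 and 1.53 in C3H mice, against 4.34, 4.04, 4.29 and 4.52 in 129Ola mice. The strains did not overlap, the log2 difference was -2.33 ± 0.16 (adjusted p = 8.56e-09), and the second probe gave -2.03 ± 0.21 (adjusted p = 1.02e-06).

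Cyp3a11, the inducible member, had levels of 4.73, 5.72, 5.75 and 6.01 in C3H mice, against 6.43, 6.80, 7.24 and 6.58 in 129Ola mice. All C3H mice were below all 129Ola mice. The log2 difference was -1.21 ± 0.41 (adjusted p = 0.0287), and -1.04 with the percentile taken over probes above background on all arrays (adjusted p = 0.0543), so the call did not hold under every scaling. Without C3H 1 it was -0.94 (adjusted p = 0.0981), and in all the call was lost in 10 settings, including without 129Ola 5 and without 129Ola 7.

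Cyp3a44 had levels of -1.10, -2.66, -2.05 and -0.67 in C3H mice and was not well above background in 129Ola, at least 2.25-fold higher in C3H (adjusted p = 0.00487). This call was lost with normexp and quantile normalization, where the log2 difference was 0.63 (adjusted p = 0.233) and so below that bound, with slide as a random block (adjusted p = 0.107) and with the replicate block (adjusted p = 0.0624). Cyp3a16 (-0.55 ± 0.46), Cyp3a41b (-0.41 ± 0.50), Cyp3a25 (0.02 ± 0.20), Cyp3a57 (0.09 ± 0.22) and the brighter Cyp3a59 probe (0.06 ± 0.20) did not pass, and the mice of the strains overlapped in each. The dimmer Cyp3a59 probe (chr5:146924485-146924544) gave -1.97 ± 0.41 (adjusted p = 0.00143), again unlike the brighter one.

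The susceptible strains DBA and C3H were compared through the difference of their differences, DBA against B6 minus C3H against 129Ola. An additive effect of the software version cancels in it. Slide and scanning day do not cancel, since C3H and 129Ola shared neither, and there they cannot be told apart from strain. In this difference of the pairs, 4 of the 8 genes passed, all upward, where 26.5% of all probes passed and 14.7% upward. Cyp3a25 gave 1.41 ± 0.28 (adjusted p = 0.00130), Cyp3a57 1.47 ± 0.31 (adjusted p = 0.00172), Cyp3a59 1.18 ± 0.29 (adjusted p = 0.00565) and Cyp3a11 1.81 ± 0.57 (adjusted p = 0.0271). The Cyp3a11 call was lost in 8 settings: without C3H 1 (1.54, adjusted p = 0.0595), B6 10 (1.53, adjusted p = 0.0580) or 129Ola 7 (1.66, adjusted p = 0.0525), with normexp, no filter on dim probes, slide as a random block or the replicate block, and in the series table, with adjusted p of up to 0.231. It held without DBA 15 (1.31, adjusted p = 0.0341). Each was thus more positive in DBA against B6 than in C3H against 129Ola. For Cyp3a13 the 2 differences were nearly equal, with -0.01 ± 0.23 between them (adjusted p = 0.980).

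Ordered over the 5 strains, Cyp3a13 was highest in 129Ola (4.30 ± 0.20, SD, n = 4), followed by B6 (3.86 ± 0.15), NZO (3.77 ± 0.30), C3H (1.96 ± 0.30) and DBA (1.51 ± 0.16). The step between NZO and C3H was 1.80 (adjusted p = 2.02e-07), while B6 and NZO overlapped. Cyp3a41b ran from NZO (6.64 ± 0.25) through DBA (2.08 ± 1.22), B6 (1.12 ± 0.42) and 129Ola (-0.28 ± 0.84) to C3H (-0.69 ± 0.59), and Cyp3a16 took the same order, from 6.82 ± 0.32 in NZO to 1.68 ± 0.59 in C3H. In both genes NZO stood clear of the next strain, while DBA with B6 and 129Ola with C3H did not differ beyond their spread. Cyp3a25 ran from DBA (7.22 ± 0.48) through C3H (6.77 ± 0.19), 129Ola (6.75 ± 0.15) and B6 (5.78 ± 0.08) to NZO (4.93 ± 0.35), and Cyp3a57 kept that order. Cyp3a11 ran from DBA (7.57 ± 1.01) through NZO (6.99 ± 0.28), B6 (6.96 ± 0.57) and 129Ola (6.76 ± 0.35) to C3H (5.55 ± 0.56), and only its last step passed the threshold. Steps between strains of different software versions cannot be told apart from the version.

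The second Cyp3a11 probe, which is also assigned to Cyp3a41 and Cyp3a44, parted from the first in NZO against B6 and NZO against DBA. Its levels were 7.57, 6.57, 7.64 and 7.37 in NZO mice, against 6.03, 5.33, 5.66 and 5.87 in B6 mice, a log2 difference of 1.56 ± 0.40 (adjusted p = 0.00970), where the first probe gave 0.02 ± 0.41. Over the 20 arrays its levels correlated at 0.97 with Cyp3a16 and 0.90 with Cyp3a41b, and at 0.80 with the first Cyp3a11 probe, as a description over arrays that share strain and slide. The first probe lists no accession of the other members. In NZO against DBA the second probe gave 1.12 ± 0.40 and the first -0.58 ± 0.41. The 2 probes were closer in DBA against B6 (0.44 ± 0.40 and 0.61 ± 0.41) and in C3H against 129Ola (-1.16 ± 0.40 and -1.21 ± 0.41). Their deviations from the strain means correlated at 0.95, and at 0.90 without DBA 15.

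Along the cluster, the genes higher in NZO than in B6 without overlap on their only probe (Cyp3a16, Cyp3a41b and Cyp3a44) lie next to each other, between Cyp3a57 and Cyp3a11. Cyp3a57 and Cyp3a25, which were lower in NZO, lie on either side at 0 and 637.6 kb. The other probes inside the cluster fell outside the name rule and were described after their values had been seen. One (chr5:146397191-146397250), named LOC102641312 and described in the files as a predicted Cyp3a41-like transcript, was 4.78 ± 0.53 higher in NZO than in B6 (adjusted p = 3.03e-06), with levels of 2.93 to 3.93 in NZO mice and -1.93 to -0.48 in B6 mice. An unnamed probe near that of Cyp3a25 (chr5:146788272-146788331) gave -0.87 ± 0.18 for NZO against B6 (adjusted p = 0.00255) and 1.69 ± 0.18 for DBA against B6 (adjusted p = 2.50e-06), close to Cyp3a25 itself. The last (chr5:146578052-146578111), also unnamed, passed in none of the 4 comparisons, with differences of -0.04 to 0.04.

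**Figure D3:**
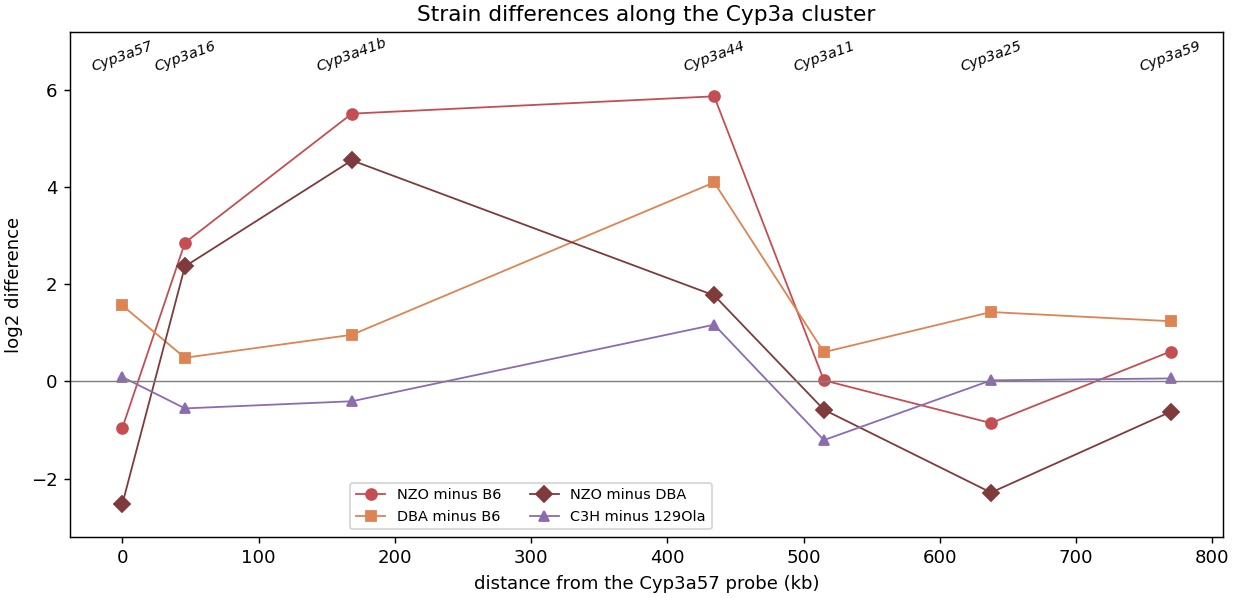
Log2 difference of the 7 Cyp3a genes of the cluster against the distance of each probe from that of Cyp3a57, in kb, for 4 comparisons. Lines join the genes of a comparison in their order, and Cyp3a44 is plotted at its lower bound where the second strain was not above background. The NZO against B6 values of Cyp3a16 and Cyp3a41b, 2.86 and 5.52, stand between the negative values of Cyp3a57 and Cyp3a25.

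Mice of 1 strain varied in step for some members. As deviations from the strain means over the 20 arrays, Cyp3a16 and Cyp3a41b correlated at 0.99, and at 0.98 without DBA 15. Cyp3a25 and Cyp3a57 also correlated at 0.99, and at 0.98 without DBA 15. Cyp3a11 correlated with Cyp3a16 at 0.94 (0.87 without DBA 15) and with Cyp3a41b at 0.94 (0.88), but with Cyp3a25 at 0.47 (0.07). Cyp3a44 correlated with Cyp3a41b at 0.56, and at 0.06 without DBA 15. These are descriptions over mice that share slides and scans, and probes that share sequence.

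**Figure D4:**
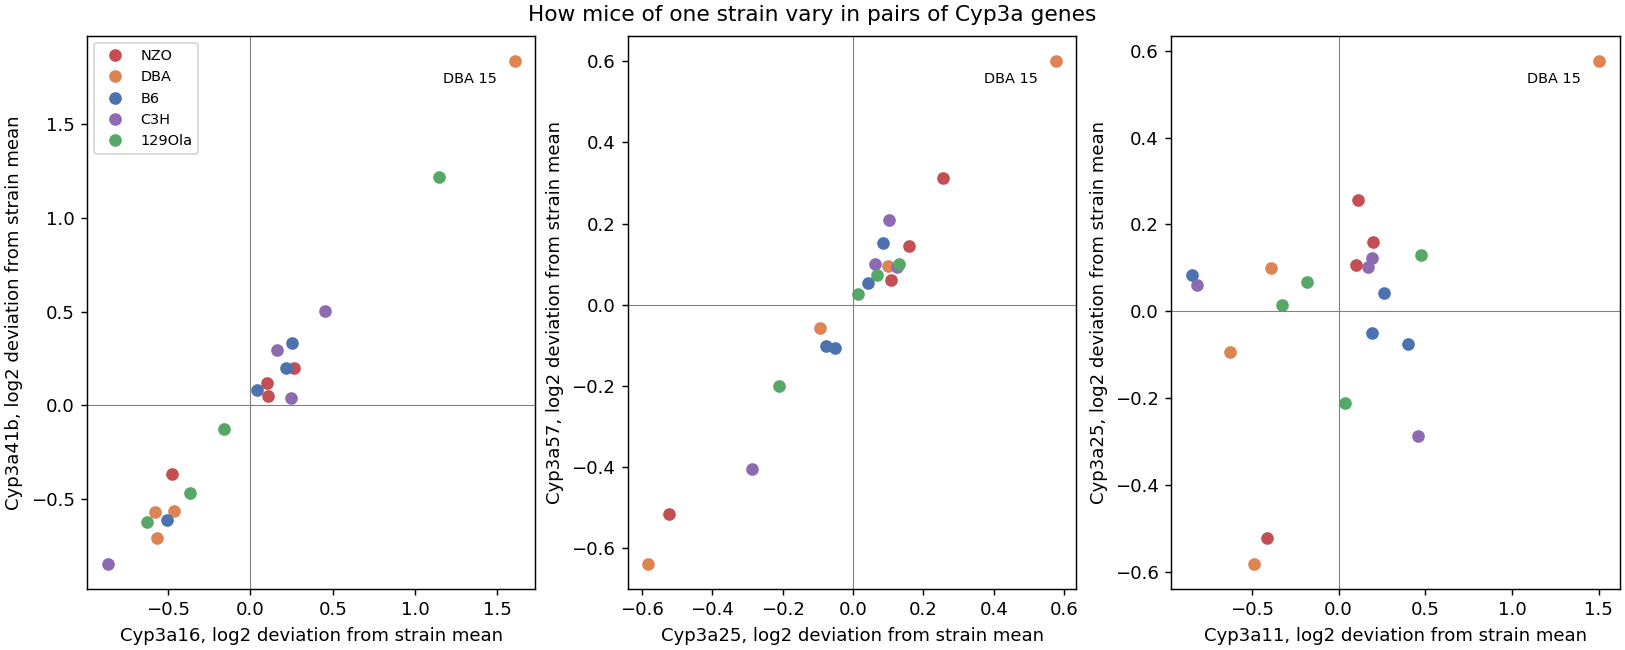
Deviation of each of the 20 mice from its strain mean, in log2 units, for 3 pairs of Cyp3a genes, coloured by strain. Points of Cyp3a16 with Cyp3a41b and of Cyp3a25 with Cyp3a57 lie along a line (correlations of 0.99 each), those of Cyp3a11 with Cyp3a25 do not (0.47), and DBA 15 is the farthest point to the upper right in each panel.

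DBA 15 had the highest level of its strain in 7 of the 8 genes. These were Cyp3a11 (9.07, against 6.94 to 7.18 in the other 3 DBA mice), Cyp3a16 (6.06, against 3.87 to 3.99), Cyp3a41b (3.91, against 1.37 to 1.52) Cyp3a44 (2.31, against -1.41 to -0.09), Cyp3a59 (7.03, against 6.04 to 6.24), Cyp3a57 (6.82, against 5.58 to 6.32) and Cyp3a25 (7.79, against 6.64 to 7.32). In Cyp3a13 it lay among the others (1.52, against 1.29 to 1.66). Of the 32 other PXR and CAR targets tested, 17 (53.1%) were higher in DBA 15 than in each other DBA mouse, against 22.2% of all genes. So were 4 of the 8 Kupffer cell and macrophage markers (50%) and 2 of the 5 cholangiocyte markers (40%), and none of the 10 hepatocyte markers. The targets higher by more than 1 were Cyp2c55, an inducible epoxygenase (1.72, against -0.73 to 0.02), Cyp2b10, the classic CAR target (-0.51, against -2.37 to -1.41), and the glutathione transferases Gsta2 (0.19, against -1.40 to -0.55) and Gstm3 (5.37, against 4.26 to 4.42). This mouse was scanned with DBA 8 on a day and slide that held no other strain. DBA 8 was the next highest DBA mouse in Cyp3a25 (7.32), Cyp3a57 (6.32) and Cyp3a11 (7.18), but not in Cyp3a16, Cyp3a41b, Cyp3a44 or Cyp3a59. The part of day and slide was not tested. The array of DBA 15 held 186 outlier spots, against 96 to 140 on the other arrays. Genes outside every list also stood high in DBA 15, among them, chosen after their values were seen, Defa42, Defa29 and Defa38, which encode defensins, by 2.95, 2.93 and 2.82 over the mean of the other DBA mice. The part of these in the Cyp3a levels of DBA 15 was not tested.

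The receptors and the electron donor were measured in the same arrays. Nr1i3, which encodes CAR, was lower in NZO than in B6 (2.59 to 3.20 in NZO mice, against 3.58 to 4.02 in B6 mice), with a log2 difference of -0.99 ± 0.18 (adjusted p = 0.000609). It was higher in DBA than in B6 by 0.65 ± 0.18 (adjusted p = 0.0176) and lower in C3H than in 129Ola by -1.20 ± 0.18 (adjusted p = 7.39e-05). Nr1i2, which encodes PXR, passed in none of the 4 comparisons, with differences of 0.01 ± 0.20 for NZO against B6, 0.38 ± 0.20 for DBA against B6, -0.37 ± 0.20 for NZO against DBA and 0.19 ± 0.20 for C3H against 129Ola. Por passed only in C3H against 129Ola, at -1.55 ± 0.30 (adjusted p = 0.000815).

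**Figure D5:**
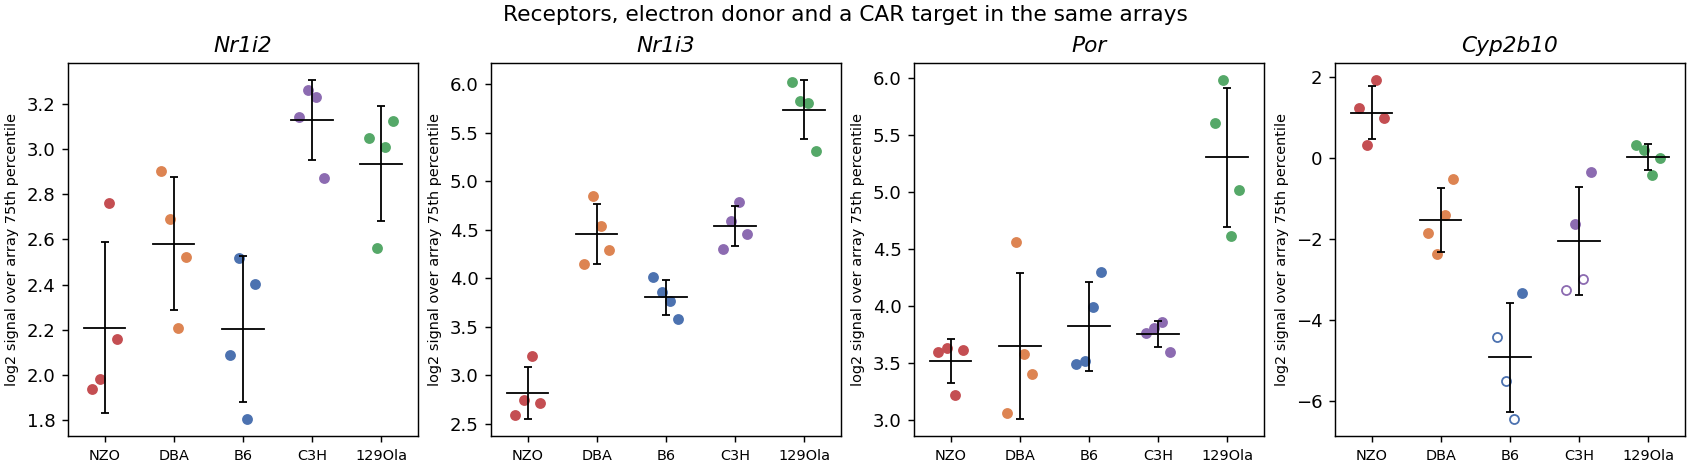
Level of Nr1i2 (PXR), Nr1i3 (CAR), Por and the CAR target Cyp2b10 in every mouse, as log2 processed signal over the 75th percentile of the array, with the mean and SD of 4 mice and open points for values not well above background. Nr1i3 lies lowest in NZO (2.59 to 3.20), where Cyp2b10 lies highest (0.32 to 1.92). In 129Ola, of the other software version, Nr1i3 lies highest (5.31 to 6.02) and Cyp2b10 next below NZO (-0.43 to 0.31). Cyp2b10 lies lowest in B6 (-6.45 to -3.34), where Nr1i3 is next above NZO (3.58 to 4.02).

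The gene lists that follow are read against the shares of all genes that passed, which were 17.9% for NZO over B6, 15.1% for DBA over B6, 17.5% for NZO over DBA and 37.1% for C3H over 129Ola. Of the 20 receptors, partners and liver transcription factors tested, only Nr1i3 passed between NZO and B6 and between DBA and B6. Between NZO and DBA, Onecut1 (HNF6) was higher in NZO at 2.91 ± 0.87, and Nr1i3 and the coactivator Ppargc1a (-0.90 ± 0.21) were lower. In C3H against 129Ola, 9 (45%) were lower and none higher, where 22% of all genes were lower, among them Nr0b2 (SHP) at -1.52 ± 0.44, the circadian factor Tef at -1.40 ± 0.46 and Rxra, the partner of both receptors, at -0.57 ± 0.10. Among 15 electron donors and haem synthesis genes, 2 were higher and 3 lower in NZO than in B6 (33.3%). The counts were 3 and 2 for DBA over B6 (33.3%), 1 and 4 for NZO over DBA (33.3%), and 3 and 6 for C3H over 129Ola (60%). Alad, an enzyme of haem synthesis, was higher in NZO than in B6 (0.98 ± 0.10), in DBA than in B6 (1.62 ± 0.10) and in C3H than in 129Ola (0.94 ± 0.10), while Hmox1, which degrades haem, was lower in NZO (-0.91 ± 0.24) and DBA (-1.34 ± 0.24) than in B6.

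Among 32 other targets of PXR and CAR, more were lower than higher in NZO, 5 higher and 15 lower than in B6 (62.5%, median -0.39, against 0.05 over all genes). Cyp2b10 was at least 34.9-fold higher (adjusted p = 2.14e-06), a bound taken as above, since 1 of the 4 B6 arrays was above background. Gsta2 (-4.19 ± 0.33), Cyp2c37 (-3.17 ± 0.22), Cyp2c55 (at least 8.42-fold, above background in 3 of 4 NZO mice), Gstm2 (-3.05 ± 0.18) and Gstm3 (-1.84 ± 0.22), which encode glutathione transferases and Cyp2c enzymes, were lower. In DBA against B6, 8 were higher and 4 lower (37.5%), with Cyp2b10 at least 5.55-fold higher, Sult1e1, the oestrogen sulfotransferase, at least 4.68-fold higher (above background in 3 of 4 B6 mice) and Gsta2 at -1.75 ± 0.33. In NZO against DBA, 4 were higher and 14 lower (56.2%). In C3H against 129Ola, 1 was higher and 21 lower (68.8%, median -0.75, against -0.08 over all genes), with Gsta2 at least 44.4-fold lower (above background in 3 of 4 C3H mice) and Sult1e1 at least 30.9-fold lower (in 1 of 4). Cyp2b10 was at least 4.06-fold lower in C3H (in 2 of 4, limma adjusted p = 0.0200).

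Genes with known sex bias in liver were counted because Cyp3a41 and Cyp3a44 carry such a bias, and all mice here were male. Only genes well above background in every mouse of some strain were tested. A gene bright in NZO alone was thus counted, and a gene dim in all strains was not. The shares and medians are those of the genes kept by this filter. Of 16 female-biased genes tested outside the family, 6 were higher and 2 lower in NZO than in B6 (50%, median 1.097, against 0.05 over all genes). They included Hao2, a peroxisomal oxidase (at least 38.8-fold), Cyp2b9 (at least 5.92-fold), A1bg (at least 3.92-fold), Slc22a26 (at least 3.62-fold), Cyp4a14 (2.97 ± 0.78) and the lipoprotein receptor Vldlr (2.96 ± 0.22). The counts were 3 and 1 for DBA over B6 (25%), 5 and 2 for NZO over DBA (43.8%), and 1 and 6 for C3H over 129Ola (43.8%). There Cyp4a14 was at least 179.7-fold lower (above background in 2 of 4 C3H mice) and Vldlr at least 18.3-fold lower (in 3 of 4). Of 22 male-biased genes, 2 were higher and 4 lower in NZO than in B6 (27.3%), with Susd4 at -3.55 ± 0.27 and the urinary protein gene Mup20 at -1.84 ± 0.21 but Cyp4a12a at 1.31 ± 0.16. They numbered 5 and 0 for DBA over B6 (22.7%), 1 and 7 for NZO over DBA (36.4%), and 5 and 5 for C3H over 129Ola (45.5%).

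Among 11 growth hormone pathway genes, 3 (27.3%) were higher in NZO than in B6, Socs2 (2.51 ± 0.77), Igf1 (0.84 ± 0.10) and Ghr (0.33 ± 0.08), and none was lower. None passed limma's adjusted threshold in DBA against B6, where 1 had an unadjusted p under 0.05, while 4 (36.4%) were higher in NZO than in DBA, and 3 were higher and 1 lower in C3H than in 129Ola (36.4%). Of 12 fetal and neonatal liver genes, 3 were higher and 2 lower in NZO than in B6 (41.7%), 0 and 2 for DBA over B6 (16.7%), 3 and 2 for NZO over DBA (41.7%), and 4 and 1 for C3H over 129Ola (41.7%). Afp, the alpha-fetoprotein gene, was higher in NZO than in B6 (0.75 ± 0.23) but lower in DBA than in B6 (-1.22 ± 0.23) and in C3H than in 129Ola (-1.74 ± 0.23).

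Of 18 acute phase and cytokine genes, 1 was higher and 4 lower in NZO than in B6 (27.8%), 2 and 2 for DBA over B6 (22.2%), 0 and 2 for NZO over DBA (11.1%), and 2 and 2 for C3H over 129Ola (22.2%). The share was thus below that of all genes for NZO over DBA and for C3H over 129Ola. Of 29 other liver cytochrome P450s, 6 were higher and 4 lower in NZO than in B6 (34.5%), 5 and 3 for DBA over B6 (27.6%), 0 and 6 for NZO over DBA (20.7%), and 5 and 9 for C3H over 129Ola (48.3%). Cyp39a1, an oxysterol hydroxylase, was lower in NZO (-5.62 ± 0.35) and DBA (-2.03 ± 0.35) than in B6, and Cyp1a2 was higher in DBA (2.23 ± 0.12).

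Of 77 genes on chromosome 5 within 1 Mb of a Cyp3a probe, 10 were higher and 10 lower in NZO than in B6 (26%), 7 and 6 for DBA over B6 (16.9%), 13 and 8 for NZO over DBA (27.3%), and 4 and 22 for C3H over 129Ola (33.8%). The shares for DBA over B6 and C3H over 129Ola were near those of all genes. The window was taken around the Cyp3a13 probes, which lie apart, as well as around the cluster. The genes named next were not assigned to either place. In NZO livers, the immune receptor genes Pilrb2 (at least 6.73-fold), Pilrb1 (at least 5.73-fold) and Pilra (-1.93 ± 0.18 on the log2 scale) were lower than in B6 livers, the first 2 of them above background in 1 of 4 NZO mice. Gm7285 was not above background in NZO and at least 1.30-fold lower there.

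Markers of other liver cells moved with the strain in part. Among the 8 markers of Kupffer cells and macrophages, NZO had 5 lower than B6, DBA had 5 lower than B6, and C3H had 6 lower and 1 higher than 129Ola. Their summed signal, in multiples of the 75th percentile, was 135 to 162 in NZO, 139 to 161 in DBA and 204 to 305 in B6, and 93.9 to 170 in C3H against 140 to 201 in 129Ola. All 8 were above background in every mouse, and none passed between NZO and DBA. NZO and B6 mice also did not overlap in the sums of 5 other marker lists. Stellate cell markers (7 genes) summed to 54.2 to 67.0 in NZO against 76.0 to 82.9 in B6, with 2 lower in NZO. Cholangiocyte markers (5 genes) summed to 2.39 to 3.52 in NZO, 2.17 to 2.74 in DBA and 4.58 to 6.63 in B6, with Sox9 and Spp1 lower in NZO than in B6. Erythroid markers (4 genes) summed to 334 to 540.5 in NZO against 175 to 235 in B6, where Alas2 was higher in NZO. Intestinal markers (3 genes) summed to 146 to 286 in NZO, 161 to 212 in DBA and 128 to 142 in B6, where Apoa4, which liver also expresses, was higher in NZO. Between C3H and 129Ola, the sums did not overlap for cholangiocyte (2.13 to 2.33 against 2.83 to 4.22), erythroid (429 to 636 against 181 to 248), intestinal (228 to 313 against 339 to 396) and exocrine pancreas markers (15.0 to 18.7 against 20.8 to 30.2). The sums overlapped in all 3 of these pairs for endothelium, lymphocyte, muscle and adipocyte markers. Hepatocyte markers summed to 11253 to 12210.0 in NZO against 9315 to 11029 in B6. None of the 10 passed limma's adjusted threshold between NZO and B6 or between DBA and B6 (3 and 1 with an unadjusted p under 0.05, all higher), with 1 higher in NZO than in DBA and 3 higher in C3H than in 129Ola. The part of these cell types in the Cyp3a differences was not tested.

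The genes most like each member outside the family were found by correlation over the 20 arrays. For Cyp3a16 they were LOC102641312 (0.98), Psmg2 (0.95) and Rpl35a (0.94), for Cyp3a41b LOC102638621 (0.96), LOC102641312 (0.96) and Ikzf3 (0.96), and for Cyp3a25 the unnamed probe beside it (0.98), Ifitm7 (0.96) and Pigu (0.94). By deviations from the strain means, Cyp2c55 came first for Cyp3a16 (0.89), Cyp3a41b (0.87) and Cyp3a11 (0.83), and Strada for Cyp3a25 (0.90) and Cyp3a57 (0.90). These values include DBA 15, which stood high in Cyp2c55 (1.72, against -0.73 to 0.02 in the other DBA mice) as in those Cyp3a genes. They were not computed without it. Cyp2c55 was above background in 0 of 4 129Ola mice and 3 of 4 NZO mice. For Cyp3a13, Rnaseh2a (0.97) led by levels and Abcd4 (0.92) by deviations. For Cyp3a44, Nt5e (0.92) and Prim1 (0.85) led, and for Cyp3a59, Eloa (0.89) and an unnamed non-coding transcript of chromosome 13 (0.89). The points share strains, slides and scans. The Ifitm7 probe shares a run of 12 bases with the unnamed probe beside Cyp3a25.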

How the data were processed

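Liver RNA of 20 mice was measured on 1 array each. Spot intensity as deposited came, per the file headers, from Feature Extraction 11.0.1.1 (NZO, DBA, B6) or 11.5.1.1 (C3H, 129Ola), while the submitters' processing notes name version 9.1. The processed signal is, per the file headers, a background-corrected intensity with no normalization between arrays. The deposited flags mark spots well above background, outliers and saturated spots, per the file headers. The submitters' values of the series table were used as an alternative only.

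Control and outlier spots were left out, spots of a probe averaged, log2 taken and each array's 75th percentile subtracted. Probes that were well above background in every mouse of some strain were fitted with limma 3.58.1 (R 4.3.3), with a mean per strain and a shared spread (15 residual degrees of freedom). Differences carry their SE. The fit was checked on simulated data with independent noise on each array and the same spread in every strain. That check held no slide or day effect and so does not cover them. The brightest probe stood for a gene in counts. Signal over background and 4 mice per strain limit the precision.

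Every Cyp3a gene was named, and of each gene list at most the 6 largest calls per comparison, with Nr1i2, Nr1i3, Por and Cyp2b10 named whether or not they passed. Their values are not given for every comparison. Members and lists were chosen with earlier results of these data known. Alternatives were other scalings, normexp background correction, no filter, slide or scanning day as a block, the compared strains alone, the animal number as a block and leaving out each mouse. The animal numbers shared by strains mark no common litter or batch in the labels. Probe coordinates are mm9, per the file headers. Promoters come from RefSeq (GRCm38.p6), which held all 9 genes, aligned globally (match 1, mismatch -1, gap -2). Strain alleles at the probe positions were not tested.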

Additional observations from a re-analysis of the deposited data

Results flagged for a closer look

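Among 55 groups of 4 mice (11 probes in 5 strains), 7 held a mouse far from the other 3 by Dixon's criterion, where chance gives about 1 in 20. These groups are not independent, since each mouse enters those of all 11 probes and several probes vary in step. DBA 15 was the high mouse in Cyp3a11 (9.07 by the first probe and 7.69 by the second, where the other DBA mice lay between 5.60 and 5.74), Cyp3a16 (6.06) and Cyp3a41b (3.91). NZO 7 was low in Cyp3a11 (6.57, against 7.09 to 7.18 in the other NZO mice), B6 10 was low in Cyp3a11 (6.11, against 7.15 to 7.36) and C3H 5 was low in Cyp3a25 (6.48, against 6.83 to 6.89).

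The difference between DBA against B6 and C3H against 129Ola passed the threshold of limma's test (adjusted over all probes) for 4 genes: Cyp3a11 (1.81 and, by the second probe, 1.60), Cyp3a25 (1.41), Cyp3a57 (1.47) and Cyp3a59 (1.18 and 2.32). The 2 Cyp3a59 probes reached it in different pairs. The brighter gave 1.24 in DBA against B6 and 0.06 in C3H against 129Ola, the dimmer 0.34 and -1.97. The Cyp3a25, Cyp3a57 and Cyp3a59 calls held under every alternative run for this difference in which their probes were measured. Scanning day as a block was not among these alternatives, since day and strain cannot be told apart for C3H and 129Ola. The Cyp3a11 call was lost in 8 settings for the first probe, 3 of which left out a mouse, and in 18 for the second, 11 of which left out a mouse, with adjusted p of up to 0.231 and 0.247.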

How the results depend on the processing

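The count of Cyp3a genes past the threshold stayed within 1.5 times its value except in the following cases. With the animal number as a replicate block it was 3 for NZO against B6, against 6 without it. The submitters' series table, which holds 6 of the 8 brightest probes, gave 3 genes for DBA against B6 and 2 for the difference between the DBA and C3H pairs. For C3H against 129Ola the count was 1 with normexp, with slide as a random block, with the series table and with the replicate block. Leaving out each mouse gave 5 to 6 genes for NZO against B6, 5 for DBA against B6, 5 to 6 for NZO against DBA, 2 to 3 for C3H against 129Ola and 3 to 5 for the difference of the pairs. Deviations of same-numbered mice correlated at -0.33 to 0.36, and with fewer than 3 shared numbers in each comparison the numbers were not taken to pair the mice.

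Cyp3a41b, Cyp3a16 and Cyp3a44 kept their call for NZO against B6 under every alternative run, with log2 differences of 5.00 to 5.67, 2.48 to 3.02 and 2.85 to 7.79, the lowest for Cyp3a44 with normexp. Cyp3a13 kept its calls for DBA against B6 and C3H against 129Ola under every alternative run in which its probes were measured. For C3H against 129Ola, scanning day as a block was not among these alternatives. Calls were lost in 10 settings for Cyp3a11 and in 3 for Cyp3a44 (C3H against 129Ola), in 8 for Cyp3a11 in the difference of the pairs, and for Cyp3a59 in 17 for NZO against B6 and in 11 for NZO against DBA. The replicate block alone ended the calls of Cyp3a25 and Cyp3a57 for NZO against B6 (adjusted p = 0.175 and 0.133) and of Cyp3a16 for NZO against DBA (adjusted p = 0.0664). The dimmer Cyp3a59 probe reversed for C3H against 129Ola in the series table (0.18), and the cause was not tested. The percentile over probes above background on all arrays moved the share of higher calls among all probes to 64.1% for C3H against 129Ola, against 40.7% in the main scaling, to 37.9% against 51.1% for NZO against B6, and to 31.8% against 55.7% for the difference of the pairs, with median differences of 0.09 against -0.08 for C3H against 129Ola and of -0.13 against 0.09 for the difference of the pairs. Higher and lower calls over all probes numbered 2574 and 2462 for NZO against B6, 1957 and 2260 for DBA against B6, 2601 and 2227 for NZO against DBA, 4107 and 5985 for C3H against 129Ola, and 4189 and 3336 for the difference of the pairs. In the same order the replicate block gave 853 and 882, 834 and 901, 875 and 848, 894 and 1130, and 1071 and 1016. The slide block gave 1638 and 2222 for C3H against 129Ola and 2223 and 1801 for the difference of the pairs, and the series table, with 20362 probes, 3026 and 3566, and 2456 and 2540.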
